A study of Mus musculus with 27 samples.

Results

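Portal mesenchyme and myofibroblast markers are described here across bulk RNA-seq libraries of mouse liver cells, organoids and assembloids. The set holds 10 genes, Pdgfra, Pdgfrb, Ly6a, Des, Vim, Cd34, Thy1, Dcn, Acta2 and Eln, chosen by gene name out of 21850 rows of the deposited table. No measured value entered that rule, and each name matched 1 row. There were 9 conditions with 3 libraries each, 27 libraries in all.

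Freshly isolated hepatocytes were compared with hepatocyte organoids (HepOrgs) at passage 2, grown in Matrigel in HM-Wnt, the expansion medium, or in MM, the medium also used for assembloids. HepOrgs were collected after 1 or 2 weeks (7 or 14 days). Periportal assembloids were aggregates of hepatocyte organoids, cholangiocytes and portal mesenchymal cells, kept in MM for 1 or 2.5 weeks (7 or 18 days). Homeostatic assembloids were seeded with 250 mesenchymal cells per well and fibrotic-like assembloids with 2500, each with 1000 cholangiocytes and 10 HepOrgs. The cells were primary, from adult C57BL/6 mice of both sexes, and were labelled WT, except replicate 3 of the fresh hepatocytes, whose genotype label reads MDR2-het while its title reads WT.

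Several features of the model bear on these genes. Mesenchymal cells generally came from mice with an H2B-GFP knock-in at Pdgfra. They were sorted as PDGFRα–GFP+ SCA1+ cells and could be cultured before use. SCA1 is the product of Ly6a, so Pdgfra and Ly6a were markers of the sort itself. Cholangiocytes generally came from mice with nuclear tdTomato, and HepOrgs from wild-type livers. According to the methods, mesenchymal and cholangiocyte structures were sometimes seen in early HepOrg cultures, and organoids were hand-picked. Nothing in the labels says that the libraries of a group came from separate cultures, so p-values measure the spread between these samples, which may be technical. In bulk RNA, fewer cells of a type and less RNA per cell cannot be told apart.

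Portal fibroblasts lie in the connective tissue around the bile ducts and portal vessels. They make collagen, proteoglycans and elastic fibres, and with hepatic stellate cells they are a known source of myofibroblasts, the contractile matrix-producing cells of scarred liver. PDGF ligands act on these cells through the receptor tyrosine kinases PDGFRα and PDGFRβ. Vimentin and desmin are intermediate filament proteins, and α-smooth muscle actin, the product of Acta2, is the usual label of a myofibroblast. SCA1, CD34 and THY1 are surface proteins used to sort stromal cells, although other cell types carry them as well.

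Among the markers, Acta2 is the one that defines the myofibroblast, and its promoter is known for CArG boxes, sites of the serum response factor. The sequence came from RefSeq, matched to the GRCm39 genome, and positions are counted back from the RefSeq transcript start, for which there were entries for 5 of the 10 genes (Acta2, Cd34, Des, Pdgfra and Vim). GENCODE annotates earlier starts, so 217 of the 250 bases of Acta2 and all 250 of Vim lie in annotated exons of these genes. The same holds for 100 bases of Cd34, 78 of Pdgfra and 69 of Des. A CArG box was searched on both strands of the 250 bases before the start as CC, then 6 bases of which at least 5 are A or T, then GG. It was found in 8.59% of 32851 promoters of that length, and among the 5 genes only in Acta2, at 2 places. The other words searched were CATTCC (12.6% of promoters), TGANTCA (6.75%), GGGCGG (32.7%) and TATAAA (12.4%). CATTCC matched once in Acta2 and GGGCGG at 2 places in Des, TATAAA matched in Vim, TGANTCA matched in none of the 5, and no word matched in Pdgfra or Cd34. The 2 boxes of Acta2 and the TATAAA of Vim are printed 5′ to 3′ on the gene's strand, with the match in capitals and 10 bases on each side.
Acta2, 84 to 75 bases before the RefSeq start, chr19:34232838-34232867, minus strand: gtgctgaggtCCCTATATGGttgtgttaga
Acta2, 34 to 25 bases before the RefSeq start, chr19:34232788-34232817, minus strand: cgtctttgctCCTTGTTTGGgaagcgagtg
Vim, 32 to 27 bases before the RefSeq start, chr2:13579080-13579105, plus strand: ctaacagtgtTATAAAagcagcgccc
These are matches of letters. Whether a factor binds there was not tested.

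Library totals ran from 30289364 to 65348596 counts (median 43727965). Genes with at least 1 count numbered up to 16018 per library, and replicate 2 of the homeostatic assembloids at 1 week stood apart with 8465. In that library the 10 hepatocyte markers summed to 2834 CPM (counts scaled to a common library size), against 100809 and 41086 in the other replicates of its group, and the 6 cholangiocyte markers to 5789, against 73.3 and 514. Replicate 3 of the fibrotic-like assembloids at 1 week lay in the same direction, with 3233 CPM of hepatocyte markers and 4584 CPM of cholangiocyte markers. Values without these libraries are given beside the assembloid comparisons they changed. CPM values were scaled by TMM, and 3 counts corresponded to 0.0323 to 0.131 CPM.

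**Figure D1:**
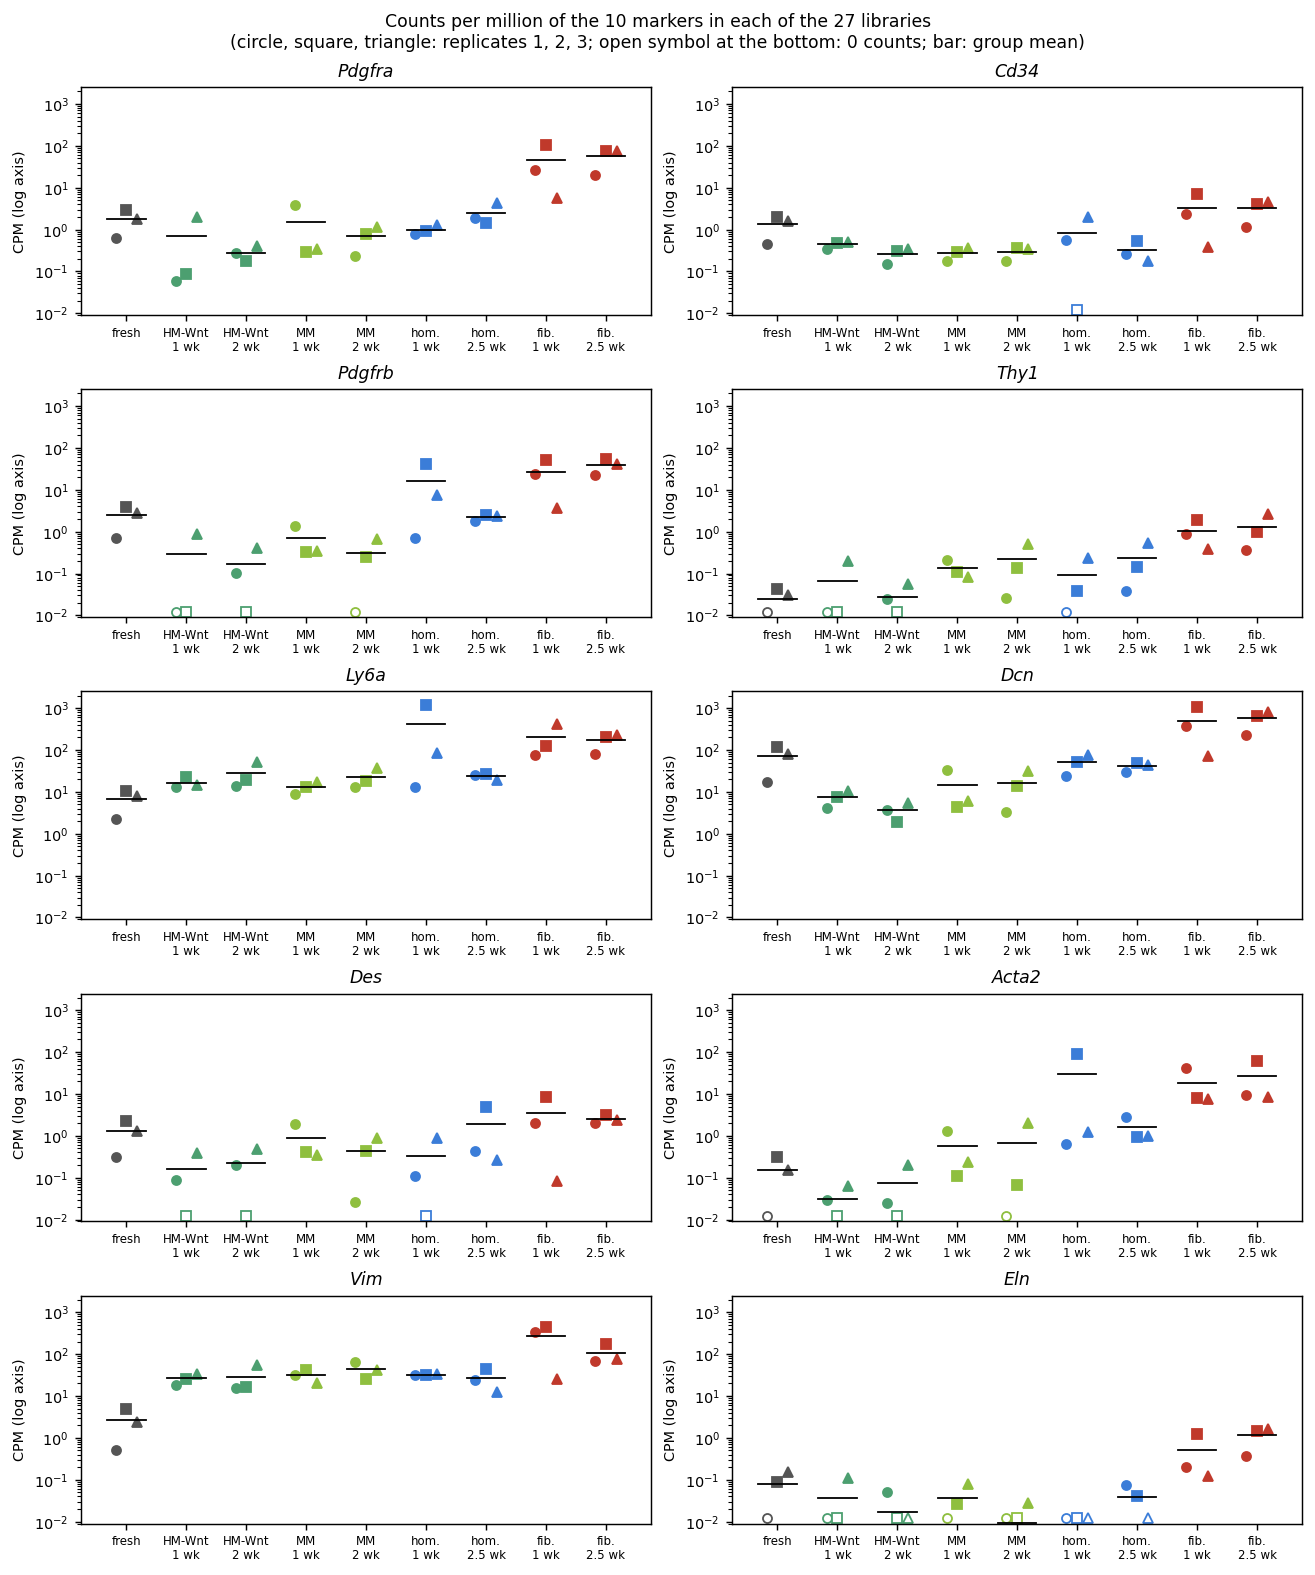
Levels of the 10 genes in the 27 libraries, in CPM on a log axis, by condition. Each symbol is 1 library (the shape marks the replicate), bars are group means, and open symbols at the bottom mark libraries with 0 counts. Pdgfra and Dcn were highest in fibrotic-like assembloids, while Vim was low in fresh hepatocytes and above 15 CPM in every HepOrg library.

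In fibrotic-like assembloids all 10 genes were above 3 counts in all 6 libraries. Homeostatic assembloids held 6 to 9 of the 10 above 3 counts, HepOrgs 4 to 10 and fresh hepatocytes 7 to 9. The summed level of the 10 genes was 436 to 1785 CPM in fibrotic-like assembloids, and 70.2 to 204 CPM in homeostatic assembloids apart from the library that stood apart, where it was 1381. HepOrgs held 33.6 to 116 CPM. The fresh hepatocytes held 21.9, 142 and 97.2 CPM.

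The receptors are taken first. Pdgfra (chr5:75311994-75358876, plus strand, GRCm39 as for the other positions), which encodes PDGFRα, was at 26.8, 102.7 and 5.58 CPM in fibrotic-like assembloids at 1 week and at 20.0, 74.8 and 73.6 at 2.5 weeks. In homeostatic assembloids it was at 0.771, 0.951 and 1.29 CPM at 1 week and at 1.88, 1.44 and 4.25 at 2.5 weeks. Every fibrotic-like library was above every homeostatic one, although replicate 3 at 1 week came close to the highest homeostatic library. The mean at 2.5 weeks was 56.1 ± 31.3 CPM (SD, n = 3) against 2.52 ± 1.51. Pdgfrb, which encodes the receptor of pericytes and stellate cells, was at 24.1, 50.5 and 3.75 CPM and then 23.1, 54.2 and 41.3 CPM in fibrotic-like assembloids. Its homeostatic levels were 0.689, 40.4 and 7.45 CPM at 1 week and 1.82, 2.52 and 2.30 at 2.5 weeks. The 2 groups overlapped at 1 week and did not overlap at 2.5 weeks.

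Of the surface markers, Ly6a (chr15:74863840-74869880, minus strand) was at 77.6, 122 and 428 CPM in fibrotic-like assembloids at 1 week and at 80.1, 204 and 231 at 2.5 weeks. In homeostatic assembloids it was at 12.9, 1166 and 83.8 CPM at 1 week and at 25.6, 26.9 and 18.9 at 2.5 weeks. The highest Ly6a level of all 27 libraries was thus in a homeostatic library, the one with few detected genes. Cd34 (chr1:194621029-194647172, plus strand), a sialomucin of stromal, endothelial and blood progenitor cells, was at 2.34, 7.05 and 0.383 CPM and then 1.14, 4.13 and 4.53 CPM in fibrotic-like assembloids. Homeostatic assembloids held 0.551, 0 and 1.99 CPM of Cd34 at 1 week and 0.263, 0.534 and 0.180 at 2.5 weeks. Thy1 (chr9:43954332-43959880, plus strand), which encodes a small glycosylphosphatidylinositol-anchored protein, was between 0.374 and 2.63 CPM in fibrotic-like assembloids, and no homeostatic library exceeded 0.539 CPM.

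Dcn and Eln are the matrix genes of the set. Dcn (chr10:97315275-97358155, plus strand) encodes decorin, a small proteoglycan that binds collagen fibrils. It was at 375, 1036 and 69.9 CPM in fibrotic-like assembloids at 1 week and at 230, 665 and 811 at 2.5 weeks. Homeostatic assembloids held 23.5, 53.1 and 74.4 CPM of Dcn at 1 week and 30.4, 50.0 and 45.0 at 2.5 weeks. The fibrotic-like replicate 3 at 1 week was the only fibrotic-like library below a homeostatic one. Eln (chr5:134731445-134776322, minus strand), which encodes tropoelastin, had 19, 81 and 9 counts in the fibrotic-like libraries at 1 week and 18, 77 and 101 at 2.5 weeks. It had 0 counts in all 3 homeostatic libraries at 1 week, which allows up to 3 counts per library for counting error alone, and 4, 2 and 0 at 2.5 weeks.

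The filament genes differed among themselves. Vim (chr2:13578738-13587639, plus strand) was at 333, 447 and 25.6 CPM in fibrotic-like assembloids at 1 week and at 69.9, 177 and 78.4 at 2.5 weeks. It was between 12.2 and 44.3 CPM in the 6 homeostatic libraries. Acta2 (chr19:34217737-34232990, minus strand) was at 40.6, 8.07 and 7.40 CPM in fibrotic-like assembloids at 1 week and at 9.43, 62.0 and 8.22 at 2.5 weeks. One library in each of these groups therefore carried most of the Acta2. In homeostatic assembloids Acta2 was at 0.633, 88.5 and 1.26 CPM at 1 week and at 2.89, 0.924 and 1.02 at 2.5 weeks, so the highest level again lay in the library with few detected genes. Des (chr1:75320511-75345223, plus strand), the intermediate filament gene of muscle and stellate cells, was at 1.97, 8.45 and 0.0821 CPM and then 2.06, 3.19 and 2.39 CPM in fibrotic-like assembloids. Its homeostatic range reached 5.01 CPM, in replicate 2 at 2.5 weeks, and the ranges of the 2 kinds of assembloid overlapped at both times.

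At 1 week, the fibrotic-like against homeostatic comparison asked what an excess of mesenchymal cells at seeding left in the RNA. All 10 genes passed the filter on low counts, Eln and Thy1 mainly through the fibrotic-like libraries. None of the 10 reached an adjusted p of 0.05 in edgeR's quasi-likelihood test over the 12 assembloid libraries, and neither did any of the 14253 genes tested (0% called). At an unadjusted p under 0.05 there were 5 of the 10 and 14.1% of all genes, while DESeq2 called Pdgfra, Dcn and Vim, and also Eln, beside 6.25% of its genes. The log2 fold change was 5.39 ± 1.06 (SE) for Pdgfra (adjusted p = 0.271), 3.25 ± 0.87 for Dcn (0.271), 3.23 ± 1.82 for Des (0.455) and 3.04 ± 1.31 for Thy1 (0.339). For Vim it was 3.02 ± 0.87 (0.274), for Cd34 1.86 ± 1.49 (0.629) and for Pdgfrb 0.64 ± 1.15 (0.848). Acta2 and Ly6a had log2 fold changes below 0, of −0.76 ± 1.55 (0.865) and −1.07 ± 1.21 (0.746), and both signs turned without homeostatic replicate 2 and on the TPM scale. Eln was at least 8.35-fold higher in the fibrotic-like group when the homeostatic libraries were set to the 3-count floor (adjusted p = 0.271), and at least 2.61-fold higher without fibrotic-like replicate 2. The median log2 fold change was 3.03 over the 10 genes and 0.20 over all genes. Levels of Pdgfra did not overlap between the groups, beside 18.6% of all genes that were higher in every library. Those of Eln and Thy1 did not overlap either, but both passed the filter mainly through the group in which they were higher.

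Without homeostatic replicate 2, Pdgfra rose in fibrotic-like assembloids at 1 week (log2 fold change 5.34 ± 1.27, adjusted p = 0.0447), 1 of the 10 genes beside 8.01% of 14746 genes called. The log2 fold changes of the genes that had been highest in that library became 4.18 for Acta2 (adjusted p = 0.0599), 2.62 for Pdgfrb (0.126) and 2.07 for Ly6a (0.14). When fibrotic-like replicate 3 was left out as well, Pdgfra (5.86, adjusted p = 0.0352) and Vim (3.55, 0.0422) passed, beside 1.87% of genes. That omission was chosen after seeing the data. The library had 15410 genes with at least 1 count, and it was the lowest of its group for Pdgfra (5.58 CPM) and Vim (25.6 CPM).

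At 2.5 weeks all 10 log2 fold changes were above 0, with a median of 3.44 against 0.03 over all genes. None passed the adjusted threshold in edgeR, where again no gene of 14253 was called (0%). At an unadjusted p under 0.05 there were 6 of the 10 beside 6.62% of all genes, and DESeq2 called Dcn, Pdgfra and Pdgfrb, and also Eln, beside 1.97%. The log2 fold change was 4.42 ± 1.02 for Pdgfra (adjusted p = 0.714), 4.10 ± 1.29 for Pdgfrb (0.715), 3.96 ± 1.74 for Acta2 (0.749), 3.95 ± 1.23 for Eln (0.726) and 3.73 ± 0.89 for Dcn (0.714). It was 3.15 ± 1.55 for Cd34 (0.779), 2.81 ± 1.28 for Ly6a (0.756), 2.30 ± 1.32 for Thy1 (0.852), 1.96 ± 0.83 for Vim (0.742) and 0.37 ± 1.69 for Des (1). For 8 of the 10, all but Des and Thy1, every fibrotic-like library was above every homeostatic library, which held for 21.7% of all genes. Eln is among these 8 and passed the filter mainly through the fibrotic-like libraries. Homeostatic 1 week replicate 2 belongs to neither group but enters the shared estimate of spread. With that library and fibrotic-like 1 week replicate 3 out, Pdgfra (adjusted p = 0.0244), Dcn (0.0274) and Pdgfrb (0.0302) rose, beside 3.19% of genes. Leaving both out was chosen after seeing the data. With the homeostatic library alone out none of the 10 passed, beside 0.258% of genes.

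**Figure D2:**
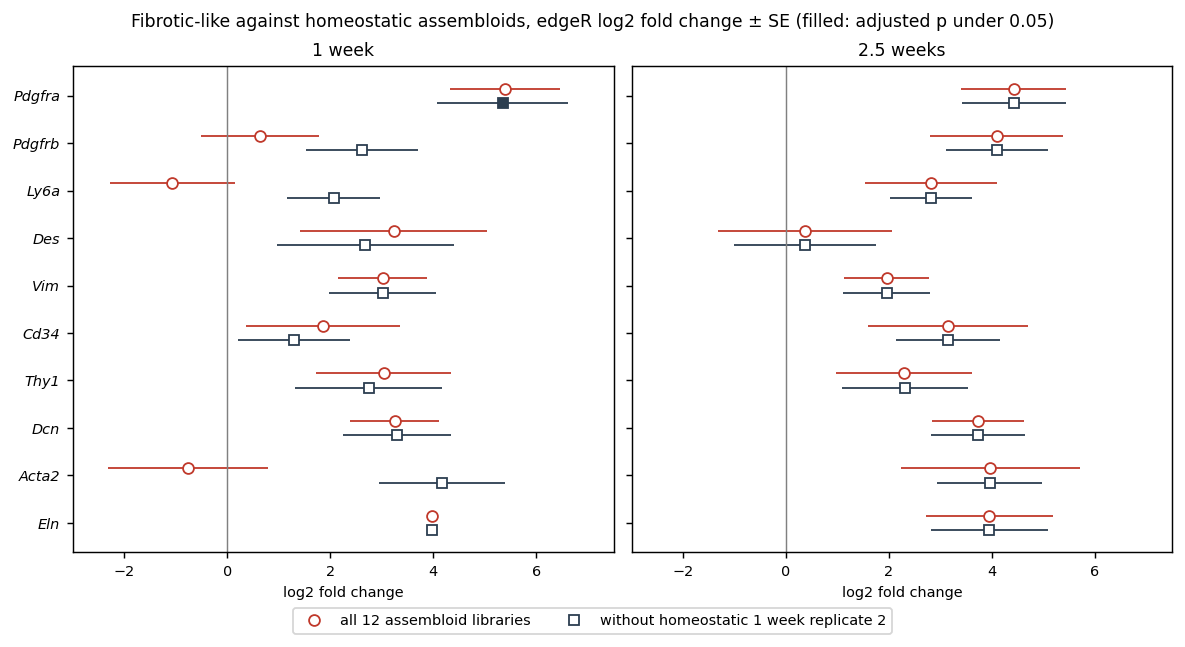
Log2 fold change ± SE of fibrotic-like against homeostatic assembloids at 1 week (left) and 2.5 weeks (right) from edgeR. Red circles use all 12 libraries, dark squares leave out homeostatic 1 week replicate 2, and filled symbols mark an adjusted p under 0.05; Eln at 1 week has no bar since its homeostatic libraries were all at 0. Ly6a and Acta2 change sign at 1 week when that library is left out. At 2.5 weeks the same genes hardly move, but that library is in neither group compared there.

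The change of the fibrotic-like effect between 1 and 2.5 weeks was tested as an interaction. None of the 10 genes passed in edgeR (0% of all genes called; 1 of 10 and 1.95% at an unadjusted p under 0.05) or in DESeq2. The interaction was 4.72 ± 2.29 for Acta2, 3.88 ± 1.75 for Ly6a and 3.46 ± 1.66 for Pdgfrb, each with an adjusted p of 1.00. Without homeostatic 1 week replicate 2 it was −0.22 ± 1.28 (adjusted p = 0.992), 0.74 ± 1.11 (0.936) and 1.47 ± 1.31 (0.920). Over time within fibrotic-like assembloids, log2 fold changes ran from −1.29 for Vim to 1.09 for Eln and none passed in edgeR (0% called; 0 of 10 and 0.856% at an unadjusted p under 0.05) or DESeq2. None was higher in every library at 2.5 weeks, beside 4.29% of genes. Within homeostatic assembloids none passed in edgeR either (0% called; 4 of 10 and 6.57% at an unadjusted p under 0.05), nor in DESeq2. The largest differences there, −4.20 for Acta2, −4.14 for Ly6a and −2.85 for Pdgfrb, became 0.75, −1.01 and −0.86 without replicate 2 at 1 week. Pdgfra was higher in every homeostatic library at 2.5 weeks than at 1 week (log2 fold change 1.30 ± 0.89), which held for 4.93% of genes.

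Assembloids were next set against HepOrgs in MM at 1 week, the same medium and time. These HepOrgs had neither added mesenchyme nor added cholangiocytes and were not aggregated, and these differences cannot be told apart here. The fibrotic-like and homeostatic comparisons share these 3 HepOrg libraries, so their values stand side by side and were not compared with each other. The log2 fold change against HepOrgs was 4.82 for Pdgfra in fibrotic-like and −0.55 in homeostatic assembloids. Replicates 1, 2 and 3 of these HepOrgs held 3.88, 0.297 and 0.344 CPM of Pdgfra, beside 0.771, 0.951 and 1.29 in homeostatic assembloids. Every homeostatic library was thus below HepOrg replicate 1 and above replicates 2 and 3. For Dcn it was 5.02 and 1.79, for Pdgfrb 5.13 and 4.56, for Ly6a 3.96 and 5.11, and for Acta2 4.91 and 5.75. The homeostatic values of the last 3 genes were 2.47, 1.88 and 0.70 without replicate 2. None of the 10 passed in edgeR in either comparison. For fibrotic-like assembloids 0.751% of 14386 genes were called, adjusted p ran from 0.0513 (Dcn) to 0.569 (Des), and 9 of 10 and 20.9% of genes had an unadjusted p under 0.05. For homeostatic assembloids 0% were called, 3 of 10 and 15.6% had an unadjusted p under 0.05, and none of the 10 was higher in every library (4.89% of genes). DESeq2 called 7 of the 10 in the fibrotic-like comparison, beside 14.7% of 14121 genes, and 2 of the 10 in the homeostatic one, beside 6.34%.

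In the fibrotic-like comparison with HepOrgs, 8 of the 10 genes, all but Des and Vim, were higher in every assembloid library, beside 27.1% of genes. Eln and Thy1 are among these 8 but passed the filter mainly through the fibrotic-like libraries. In HepOrgs in MM at 1 week, Eln had 0, 1 and 4 counts and Thy1 had 11, 4 and 4. Fold changes of Eln against HepOrgs therefore rest on few counts. When homeostatic 1 week replicate 2, in neither group, was left out of the fit, Acta2, Cd34, Dcn, Eln, Ly6a, Pdgfra, Pdgfrb and Vim rose in fibrotic-like assembloids, 8 of 10 beside 34.7% of genes called and 18.2% called higher. Their log2 fold changes were then 5.09 for Pdgfrb, 5.002 for Dcn, 4.87 for Acta2, 4.79 for Pdgfra, 3.94 for Ly6a, 3.33 for Cd34, 3.04 for Vim and 2.88 for Eln, with adjusted p from 0.00301 (Ly6a) to 0.0487 (Eln). With all libraries in the fit, 1 of 11 activated myofibroblast genes passed (Postn, log2 fold change 8.26, adjusted p = 0.0306), and 0 of 9 elastic fibre, 0 of 11 smooth muscle contractile, 0 of 12 portal fibroblast and 0 of 9 hepatic stellate genes. Without the homeostatic library, matrix and contractile genes of the lists also rose: 6 of 9 tested elastic fibre genes, led by Mfap5 (6.98) and Fbln1 (6.40), and 9 of 11 activated myofibroblast genes, led by Postn (8.21) and Cdh11 (6.04). Fn1 was the 1 gene of the myofibroblast list that fell (−1.09). Among smooth muscle contractile genes 5 of 12 rose, led by Actg2 (5.51) and Tagln (2.37). Of 12 portal fibroblast genes, 6 rose, led by Dpt (6.90) and Gas1 (6.13), and Entpd2 fell (−2.24). Of 10 hepatic stellate genes, 5 rose, led by Hand2 (4.002) and Nes (3.75), and Angptl6 and Lrat fell.

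Other cell types moved with these comparisons. The 6 cholangiocyte markers summed to 357 to 4584 CPM in fibrotic-like assembloids, to 73.3 to 514 CPM in homeostatic ones other than the library with 5789, and to 51.5 to 197 CPM in HepOrgs. The 10 hepatocyte markers summed to 3233 to 54784 CPM in fibrotic-like assembloids, to 41086 to 100809 CPM in homeostatic ones other than the library with 2834, and to 23196 to 70623 CPM in HepOrgs in MM at 1 week. All 10 had a log2 fold change below 0 in fibrotic-like against homeostatic assembloids at 1 week (median −1.50) and against HepOrgs (median −2.06), with 0 called, and 5 of 10 fell against HepOrgs without homeostatic 1 week replicate 2. Mesothelial markers other than Krt19, which cholangiocytes share, summed to 75.4 to 2097 CPM in fibrotic-like assembloids, to 5.89 to 121 in homeostatic ones other than the library with 2769, and to 0.339 to 7.74 in HepOrgs. Endothelial markers summed to 2.09 to 31.6 CPM in the 12 assembloid libraries, with Clec4g at 0 in all libraries of 3 of the 4 groups, and immune markers to 0.0373 to 15.9 CPM, with Clec4f at 0 in all 12. All 6 cholangiocyte markers exceeded 3 counts in a library of every group, and 5 to 7 of the 7 mesothelial markers did, with Upk3b at 0 in both homeostatic groups. The part of these cells in the differences of the 10 genes was not tested.

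Within fibrotic-like assembloids, the genes separated by how they followed Pdgfra. Counts of Dcn per count of Pdgfra lay between 8.90 and 14.0 in the 6 libraries although Pdgfra itself ranged from 5.58 to 102.7 CPM. Cd34 lay between 0.0552 and 0.0872 counts per Pdgfra count and Pdgfrb between 0.492 and 1.15. The filament genes were wider, with Vim at 1.07 to 12.4, Acta2 at 0.0786 to 1.51 and Des at 0.0147 to 0.103. Ly6a was at 2.89, 1.19 and 76.6 counts per Pdgfra count at 1 week and at 3.997, 2.73 and 3.14 at 2.5 weeks. Replicate 3 at 1 week was thus the only fibrotic-like library with a Ly6a to Pdgfra ratio above 3.997. In fresh hepatocytes, the Ly6a ratio was 3.44 to 4.45, and in homeostatic assembloids it was 4.44 to 1226.

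**Figure D3:**
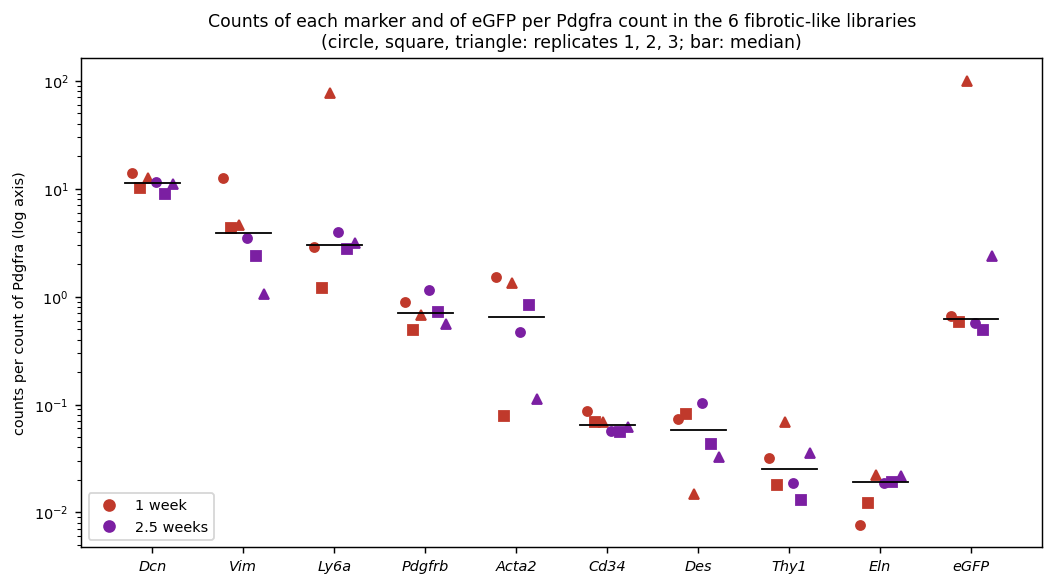
Counts of each gene per count of Pdgfra in the 6 fibrotic-like assembloid libraries, on a log axis; points are libraries and bars are medians. Dcn and Cd34 sit within a narrow band, while Ly6a has 1 library at 76.6 beside 5 libraries between 1.19 and 3.997.

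The reporter rows give a separate view of the seeded cells. eGFP, carried by the Pdgfra knock-in, had 0 counts in the HepOrg and fresh hepatocyte libraries but for 1 count in a single HM-Wnt library. It was at 17.8, 60.2 and 558 CPM in fibrotic-like assembloids at 1 week and at 11.5, 36.7 and 174 at 2.5 weeks. In homeostatic ones it was at 0.633, 8.80 and 88.9 CPM at 1 week and at 0.451, 0.677 and 25.6 at 2.5 weeks. In every assembloid group eGFP thus rose with the replicate number, and the reason was not tested. Per Pdgfra count, eGFP ran from 0.490 to 99.9 in the fibrotic-like libraries, the highest again in replicate 3 at 1 week. That library held 40767 eGFP counts beside 408 Pdgfra counts. Because nTnG mice also carry an EGFP sequence in their construct, eGFP counts cannot be told apart by source. tdTomato was at 0 in HepOrgs and fresh hepatocytes and between 0.248 and 104 CPM in assembloids. It did not rank the libraries as the cholangiocyte markers did. The 1 week libraries with 5789 and 4584 CPM of those markers held 4.44 and 6.69 CPM of tdTomato. Homeostatic replicate 3 at 1 week, with 514 CPM of them, held 104. The reason was not tested.

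Levels of Ly6a were also read against the cholangiocyte markers. Across the 6 homeostatic libraries, log2 levels of Ly6a and of the summed cholangiocyte markers had a Pearson r of 0.992 (Spearman 0.943), and 0.944 without the 2 libraries farthest from the median. Mesothelial markers other than Krt19 (5.89 to 2769 CPM) put these libraries in the same order as the cholangiocyte markers. Hepatocyte markers were lowest (2834 CPM) where both were highest. Which of these cell types Ly6a followed was not tested. Across the 6 fibrotic-like libraries the same r was 0.656 (Spearman 0.486), and −0.110 without the 2 farthest, so it rested on them. For Acta2 and cholangiocyte markers r was 0.935 in homeostatic libraries (Spearman 0.886), and 0.271 without the 2 farthest, so it too rested on them. Dcn and Pdgfra across the fibrotic-like libraries had an r of 0.992 (Spearman 0.943), and 0.971 without the 2 farthest. Ly6a and Pdgfra there had an r of −0.273 (Spearman −0.143), and 0.976 without the 2 farthest. The points of each set come from 2 culture times with 3 libraries each, and both measures of a point share 1 library and its depth.

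**Figure D4:**
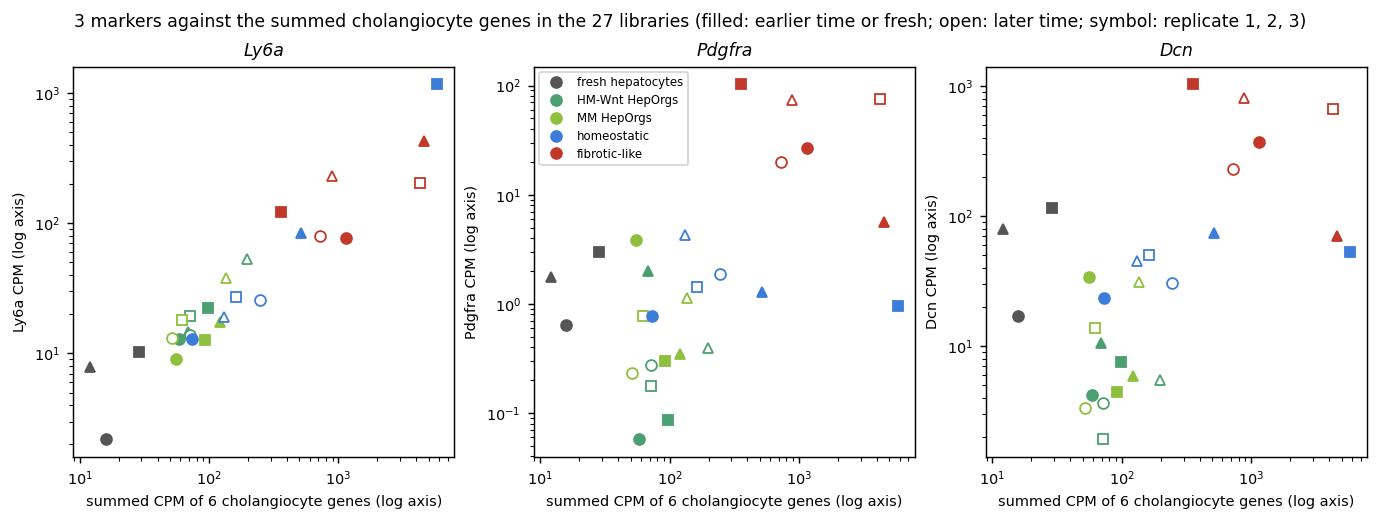
Levels of Ly6a, Pdgfra and Dcn (CPM, log axis) against the summed CPM of 6 cholangiocyte markers (log axis) in the 27 libraries, coloured by kind of sample. The homeostatic library at 5789 CPM of cholangiocyte markers has the highest Ly6a (1166 CPM) but 0.951 CPM of Pdgfra.

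Genes that share sequence were checked beside these results. Acta2 shared 7.51% of its 100-base transcript windows with Stambpl1, a deubiquitinase gene that overlaps it, and the library protocol did not keep strand, so reads in the overlap cannot be assigned to one gene from the data. Stambpl1 was at 65.9 CPM in homeostatic 1 week replicate 2 and at 7.65 to 28.3 CPM in fibrotic-like libraries. Ly6a shared 8.81% of windows with other genes, among them Ly6c1, which was at 0 to 1.10 CPM in the homeostatic libraries at 1 week and at 1.23 to 6.68 CPM in fibrotic-like ones. Vim shared 13.7% of windows, with the predicted gene Gm54102, and Pdgfra, Pdgfrb, Thy1 and Dcn shared none.

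The order of the genes by level was taken per length. In fibrotic-like assembloids at 2.5 weeks, the deposited TPM was 532 ± 327 (SD, n = 3) for Ly6a, 144 ± 91.3 for Dcn, 129 ± 113 for Vim and 21.6 ± 29.5 for Acta2. Pdgfra followed at 12.3 ± 8.96 TPM, Pdgfrb at 10.0 ± 6.91, Des at 3.05 ± 1.73, Thy1 at 2.29 ± 1.68, Cd34 at 1.44 ± 1.01 and Eln at 0.253 ± 0.180. The gene length used for TPM differed by no more than 5% from the distance between gene start and end, with introns counted, in 80.8% of genes, but for Des it was 8251 of 24713 bases and for Ly6a 3155 of 6041, and Cd34, Dcn and Thy1 also lay outside that range. Per kilobase of the longest annotated transcript, Dcn came first at 91.6 CPM and Ly6a next at 44.6. The ranges of Ly6a and Dcn do not settle their order, which turns with the length used, while Vim and Acta2 did not overlap on either scale.

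The comparison of HepOrgs with fresh hepatocytes followed these genes into culture. All 4 HepOrg groups were tested against the same 3 fresh libraries and their values stand side by side. Of the 10 genes 8 had enough counts for the test; Thy1 reached at most 0.509 CPM in these 15 libraries and Eln at most 0.152. The direction differed between genes. Vim and Ly6a were the genes with a log2 fold change above 0 in all 4 comparisons, and Cd34, Dcn, Pdgfra, Pdgfrb and Des were below 0 in all 4.

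Vim was at 0.506, 4.95 and 2.44 CPM in fresh hepatocytes and at 15.2 to 63.9 CPM in the 12 HepOrg libraries (median 28.9). No HepOrg library overlapped the fresh ones. Of 13405 genes, 3883 and 4383 were likewise higher in every library in HM-Wnt at 1 and 2 weeks, and 3752 and 3430 in MM. Vim rose 9.70-fold in HM-Wnt at 1 week (log2 fold change 3.28 ± 0.70, adjusted p = 0.00176), 10.7-fold at 2 weeks (0.00126), 11.8-fold in MM at 1 week (0.0014) and 16.9-fold at 2 weeks (0.00067). The share of all genes called was 49.7% and 51.8% in HM-Wnt at 1 and 2 weeks and 42.8% and 39.7% in MM, against 3, 4, 2 and 3 of the 8 genes.

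Ly6a was at 2.21, 10.2 and 7.85 CPM in fresh hepatocytes and at 8.99 to 52.7 CPM in HepOrgs (median 16.0). It rose at 2 weeks in HM-Wnt (log2 fold change 2.04, adjusted p = 0.0103) and in MM (1.76, 0.0273). At 1 week it was 1.24 in HM-Wnt (adjusted p = 0.0884) and 0.92 in MM (0.21), where the groups overlapped. Both calls at 2 weeks were lost without replicate 3 of the HepOrg group, which held the highest Ly6a level of each (adjusted p = 0.0692 in HM-Wnt and 0.114 in MM). The call in MM was also lost without fresh hepatocyte replicate 1 (0.074) or replicate 3 (0.0501). With the replicate number as a block Ly6a passed in all 4 comparisons.

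Cd34 fell in all 4 comparisons. It was at 0.453, 2.01 and 1.58 CPM in fresh hepatocytes and at 0.151 to 0.518 CPM in HepOrgs (median 0.340). The log2 fold change was −1.53 ± 0.54 in HM-Wnt at 1 week (adjusted p = 0.0304), −2.18 at 2 weeks (0.00455), −2.10 in MM at 1 week (0.00704) and −2.003 at 2 weeks (0.00983). The call in HM-Wnt at 1 week was lost without fresh hepatocyte replicate 2 (adjusted p = 0.124) or 3 (0.089), and without any 1 of the HepOrg replicates 1, 2 and 3 (0.099, 0.0672 and 0.061). Dcn was at 17.1, 115 and 79.1 CPM in fresh hepatocytes and at 1.94 to 33.9 CPM in HepOrgs (median 5.68). It fell in HM-Wnt, with a log2 fold change of −3.27 ± 0.94 at 1 week (adjusted p = 0.0111) and −4.27 ± 0.99 at 2 weeks (0.00282). In MM its log2 fold change was −2.25 at 1 week (adjusted p = 0.0586) and −2.14 at 2 weeks (0.0742).

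The receptors and the remaining filament genes did not pass. Pdgfra was at 0.639, 2.98 and 1.77 CPM in fresh hepatocytes and at 0.0581 to 3.88 CPM in HepOrgs, with log2 fold changes from −2.49 to −0.23. Pdgfrb was at 0.719, 3.85 and 2.77 CPM in fresh hepatocytes and at 0 to 1.40 in HepOrgs, where 4 of 12 libraries had no count. Its log2 fold changes ran from −3.56 in HM-Wnt at 2 weeks (adjusted p = 0.0586; 0.0362 with the replicate block) to −1.75. Des was at 0 to 1.88 CPM in HepOrgs, and Acta2 at 0 to 2.01 CPM, its 2 highest libraries being MM replicate 1 at 1 week (1.32 CPM) and MM replicate 3 at 2 weeks (2.01). In the first of these, Pdgfra (3.88 CPM), Pdgfrb (1.40), Des (1.88) and Dcn (33.9) were at their HepOrg maximum.

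**Figure D5:**
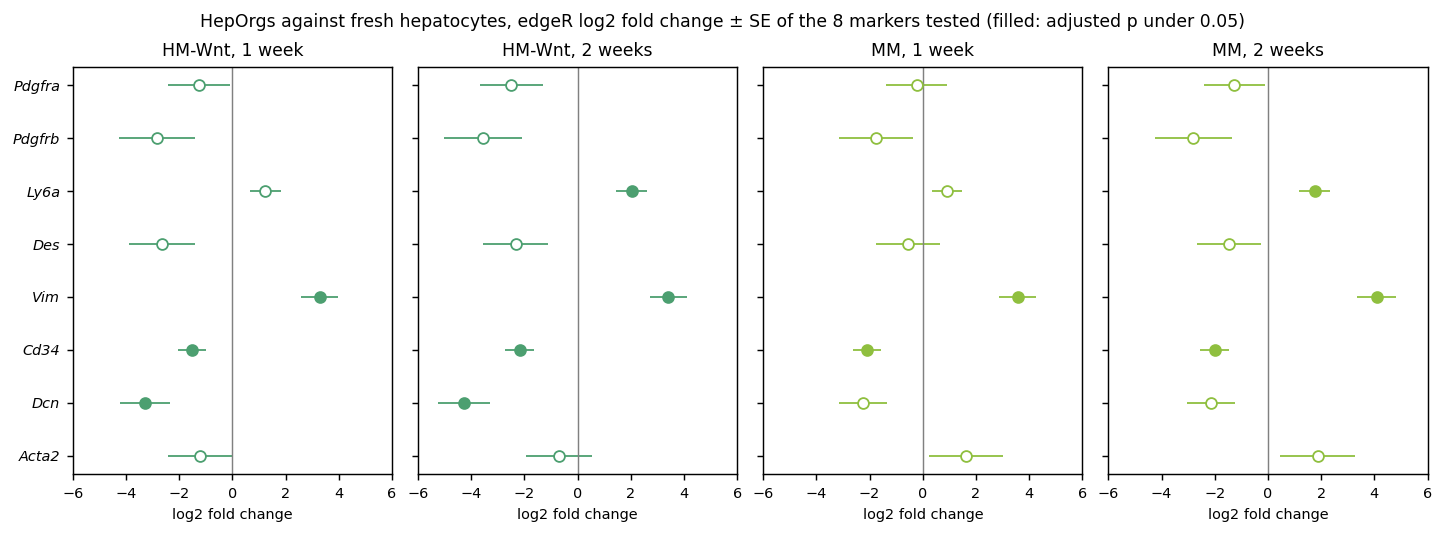
Log2 fold change ± SE (edgeR) of the 8 tested genes in the 4 HepOrg groups against the same 3 fresh hepatocyte libraries; filled symbols mark an adjusted p under 0.05. Vim is filled on the positive side and Cd34 on the negative side in all 4 panels.

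Other cell types moved in this comparison as well. Of 13405 genes, 3341, 3500, 2883 and 2641 were called higher, in the order HM-Wnt 1 and 2 weeks and MM 1 and 2 weeks. In that order 3325, 3442, 2855 and 2680 were called lower. Fresh hepatocytes held endothelial markers at 42.6, 205 and 170 CPM, stellate markers at 48.2, 212 and 150 CPM and immune markers at 51.9, 530 and 205 CPM. In HepOrgs the endothelial sum was 2.35 to 8.998 CPM, with 8 of 9 tested genes lower in each comparison. The stellate sum in HepOrgs was 24.9 to 206 CPM and overlapped that of fresh hepatocytes. Replicate 1 of the fresh hepatocytes was lowest for the endothelial, stellate and immune lists, as it was for every gene of the set. Of 10 stellate genes, 5, 5, 4 and 5 fell in HM-Wnt at 1 and 2 weeks and in MM at 1 and 2 weeks, Colec11 by 7.06 and Ngfr by 6.00 on the log2 scale in HM-Wnt at 1 week. Of 10 hepatocyte genes, 4, 7, 6 and 7 fell, with medians of −0.91, −1.73, −1.27 and −1.36 on the log2 scale, and 1 rose in MM at 2 weeks. Cholangiocyte markers rose in HepOrgs, 3, 5, 5 and 5 of 6 in the same order. Immune markers were at 7.54 to 71.8 CPM in HepOrgs except for MM replicate 3 at 2 weeks with 780. The part of these cells in the differences of Cd34, Dcn, Vim and Ly6a was not tested.

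Relatives and partners of the 10 genes were read from fixed lists. Of 13405 genes, 3341, 3500, 2883 and 2641 were called higher, in the order HM-Wnt 1 and 2 weeks and MM 1 and 2 weeks. In that order 3325, 3442, 2855 and 2680 were called lower. The list counts are to be read beside these. All 4 tested relatives of Ly6a (Ly6c1, Ly6d, Ly6e and Ly6k) rose in all 4 comparisons with fresh hepatocytes, led by Ly6d (log2 fold change 11.004 in HM-Wnt at 1 week) and Ly6k (5.91). Among PDGF ligands, Pdgfa, Pdgfb and Pdgfc rose in all 4, with log2 fold changes of 1.91, 2.25 and 2.16 in HM-Wnt at 1 week, and Pdgfd did not pass. Pdgfa was at 18.1 to 35.5 CPM in HepOrgs and at 3.96 to 9.37 CPM in fresh hepatocytes. Of 9 portal fibroblast genes tested, 4, 4, 3 and 3 rose, among them Igfbp6 (7.57 in HM-Wnt at 1 week), and 3, 4, 2 and 2 fell, among them Tcf21 (−5.36). The activated myofibroblast list had 5, 3, 7 and 3 of 11 genes higher and 1, 1, 0 and 1 lower, with Tnc at 5.09 and Postn at −4.57 in HM-Wnt at 1 week. Of the intermediate filament and actin relatives Prph, which encodes peripherin, was the 1 gene of 5 that rose, by 3.51 to 4.64. The elastic fibre list had 1, 1, 2 and 1 of 8 genes higher and 3, 2, 2 and 2 lower, with Efemp2 higher (4.19) and Ltbp4 lower (−3.73) in HM-Wnt at 1 week.

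Between the media, none of the 8 tested genes passed in edgeR at 1 week (2.98% of 12989 genes called; 0 of 8 and 22.5% at an unadjusted p under 0.05) or at 2 weeks (11.5% called; 1 of 8 and 28.3%), nor in DESeq2. These fits had no replicate term, although the replicate numbers were taken to pair the HepOrg libraries. With the replicate number as a block more genes were called at both times, but none of these 8. Without the block, Dcn had the lowest adjusted p in edgeR, 0.126 at 2 weeks (log2 fold change of MM against HM-Wnt 2.15 ± 0.86). Acta2 was higher in every MM library than in every HM-Wnt library at 1 week (log2 fold change 2.85 ± 1.36, adjusted p = 0.237), which held for 12.7% of genes. At 2 weeks none of the 10 genes did so, beside 16.5%.

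Across all 27 libraries the pairwise Pearson r of the 10 genes on log2(CPM + 1) ran from 0.214 to 0.915 with a median of 0.699, while across the 12 HepOrg libraries it ran from −0.226 to 0.941 with a median of 0.259. Libraries of a group share their condition and the points are not independent. The 5 other genes whose pattern was most like the mean of the 10, of 11657 searched over the 27 libraries, were Loxl1 (r = 0.975), Serpinh1 (0.961), Sema3a (0.955), Snai1 (0.953) and Cnrip1 (0.953). For single genes the closest was Loxl3 for Pdgfra (0.976), Rcn3 for Pdgfrb (0.975), Stambpl1 for Ly6a (0.962), Emilin1 for Des (0.810) and Rassf1 for Vim (0.877). For the others it was Ifitm1 for Cd34 (0.937), Mfap2 for Thy1 (0.957), Serpina3g for Dcn (0.948), Ehd2 for Acta2 (0.950) and Osr2 for Eln (0.960).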

How the data were processed

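Bulk RNA was sequenced from SMARTseq2 libraries, which do not keep strand. The authors aligned paired-end reads to GRCm39 with STAR, assigned them to genes with featureCounts, and deposited whole-number read counts per gene and library, without pooling replicates. The authors also deposited TPM values, which divide the counts by a length given for each gene. Of 37 libraries, 27 were mapped to a condition by their titles and 10 were not used. Fresh hepatocyte replicate 3 was grouped by its title.

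Counts were tested in R 4.3.3 with edgeR 4.0.16 (TMM, filterByExpr with a minimum count of 10 and total of 15, prior count 2, quasi-likelihood test, Benjamini-Hochberg adjustment over all genes of a comparison, adjusted p under 0.05). Groups entered as 1 mean each, in fits of the 12 assembloid libraries, these and the 6 MM HepOrg libraries, the 15 HepOrg and fresh libraries, or the 12 HepOrg libraries. Scripts were tested on simulated data. CPM uses TMM-scaled library sizes, and a bound uses a floor of 3 counts per library, which covers counting error only.

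The 10 genes, the gene lists and the tests were chosen with earlier results of these data known. All 10 genes are named, with the 2 largest changes among genes past the threshold in a list, the 5 genes most like their mean and the closest gene to each. In assembloids, Fn1, Entpd2, Angptl6 and Lrat were named after their values were seen.

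Replicate numbers recur across groups. Among the 12 HepOrg libraries, deviations from group means correlated above 0.1 for 18 of 18 same-numbered pairs (0.178 to 0.495), and the numbers were taken to pair them. In the assembloids 7 of 18 pairs did, and with fresh hepatocytes 20 of 30, so those numbers were not taken as pairs. The eGFP level nevertheless rose with the replicate number in every assembloid group.

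Alternatives were RLE size factors, DESeq2 1.42.0, other count filters, limma 3.58.1 on log2(TPM + 1) and log2(TPM + 0.1) for genes with at least 1 TPM in 3 libraries, the replicate block, voom with sample quality weights, other sets of libraries in the fit, and each replicate left out in turn.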

Additional observations from a re-analysis of the deposited data

How the results depend on the processing

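Of the log2 fold changes of the 10 genes under the alternatives, 440 kept their direction and side of the threshold, 33 passed only under the alternative, 17 no longer passed and 14 changed sign. Of counts past the threshold, 347 stayed within 1.5 times and 87 moved. On the log2(TPM + 1) scale the median of all genes shifted by 0.67 and 0.38 for fibrotic-like against homeostatic assembloids at 1 and 2.5 weeks, by 0.63 for fibrotic-like assembloids against HepOrgs and by 0.37 to 0.64 for HepOrgs against fresh hepatocytes. The causes of the moves were not tested.

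Sign changes at 1 week were, for Ly6a, 1.25 on log2(TPM + 1), 1.27 on log2(TPM + 0.1), 0.94 with voom weights, 2.07 without homeostatic replicate 2 and 1.00 without both doubted libraries. For Acta2 they were 1.30, 2.18, 4.77, 4.18 and 4.55 in the same order, and 0.92 with the replicate block. Leaving out 1 replicate gave −2.13 to 2.07 for Ly6a, −2.004 to 4.18 for Acta2 and, for Pdgfrb, −0.29 (without fibrotic-like replicate 2) to 2.62. Des at 2.5 weeks ran from −0.13 (without homeostatic replicate 3; −0.08 without replicate 1) to 2.701.

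For fibrotic-like against homeostatic assembloids at 1 week, where 0 of the 10 genes and 0 of all genes passed, DESeq2 called 4 and 867, log2(TPM + 1) 2 and 735, log2(TPM + 0.1) 1 and 161, voom weights 2 and 2433, all 27 libraries in 1 fit 4 and 910, and the fit without both doubted libraries (chosen after seeing the data) 2 and 272. Leaving out 1 replicate gave 0 to 1 and 0 to 1181. At 2.5 weeks (0 and 0) DESeq2 called 4 and 273, voom weights 5 and 1098, only the groups compared 5 and 738, without both doubted libraries 3 and 463, and log2(TPM + 0.1) 1 of all genes. Leaving out 1 replicate gave 0 to 38 of all genes. Over time, DESeq2 called 15 of all genes in homeostatic and voom weights 4 in fibrotic-like assembloids (0 otherwise).

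For homeostatic assembloids against HepOrgs (0 and 0) DESeq2 called 2 and 895, all 27 libraries 1 and 197, log2(TPM + 1) 28 of all genes, log2(TPM + 0.1) 1, voom weights 47 and without both doubted libraries 12. Leaving out 1 replicate gave 0 to 2 and 0 to 1283, the highest without homeostatic replicate 1. For fibrotic-like assembloids (0 and 108) DESeq2 called 7 and 2081, log2(TPM + 1) 6 and 2153, log2(TPM + 0.1) 7 and 1199, voom weights 9 and 8472, all 27 libraries 4 and 1068, only the groups compared 5 and 3434, at least 10 counts in every library 3 and 900, without both doubted libraries 8 and 3619, and the replicate block 48 of all genes. Leaving out 1 replicate gave 0 to 8 and 0 to 5143. The highest counts were without homeostatic 1 week replicate 2, and leaving out fibrotic-like replicate 1 or MM replicate 1 or 2 left 0 of all genes.

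For HepOrgs against fresh hepatocytes, all 27 libraries in 1 fit called 2893 of all genes (6666 in the reported fit), then 2 of the 10 and 3248 (4 and 6942), 1 and 2005 (2 and 5738) and 1 and 1890 (3 and 5321), in the order HM-Wnt 1 and 2 weeks and MM 1 and 2 weeks. At least 10 counts in every library left 1 of the 10 for MM at 1 week. Between media at 1 and 2 weeks (387 and 1488 of all genes) DESeq2 called 1420 and 2494, all 27 libraries 0 and 7, and only the groups compared 30 at 1 week. The replicate block, which uses the pairing, called 1232 and 2544 and none of the 10. Leaving out 1 replicate gave 42 to 600 and 578 to 1596.

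The block changed calls of Ly6a and Pdgfrb against fresh hepatocytes, as given above, where the numbers were not taken as pairs. DESeq2 gave no adjusted p for Acta2 at 1 week. The order per length used the longest transcript, added after the data were seen; coding length was not run because no protein sequences were used here. With 3 libraries a group, Thy1 and Eln rested on few counts outside fibrotic-like assembloids.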
